A study of Mus musculus with 24 samples.

Results

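Translation initiation and elongation factors were followed in RNA-seq data from MIN6 cells, a mouse insulinoma line that secretes insulin and is widely used as a β-cell model. The genes were taken by name: every row of the count table whose symbol begins with Eif1 to Eif6, or with Eef1 or Eef2. This gave 66 rows, of which 7 carried a pseudogene symbol (-ps) and were left out, so that 59 genes remained of the 12310 in the table. All 59 passed the filter on low counts, and 12306 genes were tested in all. The rule reads names only, but the group itself was picked with earlier results of these data known.

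Cells were treated with verapamil (50 µM; 24 h), a blocker of L-type calcium channels, or left untreated as the control, with 12 libraries in each group and 5.6 mM glucose in the medium of both. MIN6 is a single established line, so that all libraries share its genotype. The methods describe 4 sets of experiments with 3 replicates in each, and the set of a library was read from its label, a reading that the sources used here do not spell out. The design text counts 12 independent experiments, so that the sources differ on how many libraries of a group are separate, and the spread behind a p-value may partly be technical.

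Translation in eukaryotic cells starts when eIF2, loaded with GTP and initiator tRNA, joins the small ribosomal subunit with eIF1, eIF1A, eIF3 and eIF5, while the eIF4 proteins bind the mRNA cap and unwind the leader. The complex scans to the start codon, eIF5B joins the large subunit, and eEF1A and eEF2 then carry out the cycles of elongation. Phosphorylation of eIF2α by its kinases blocks the exchange factor eIF2B and lowers initiation, and this control is known to matter in β-cells because of their large secretory load of insulin.

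Total counts ranged from 21840159 to 44806556 in verapamil libraries and from 12590476 to 32360171 in control libraries, and levels are given as CPM, counts scaled to a common library size with TMM factors. Of 10 β-cell markers 9 were in the table, with a summed level of 4339 to 6248 CPM in verapamil libraries, against 5448 to 7229 CPM in control libraries. Of the 9 markers only Mafa rose at an adjusted p under 0.05 in edgeR (log2 fold change, verapamil over control, 0.85). Ins2 (-1.05), Slc30a8 (-0.88), Iapp (-0.85), Slc2a2 (-0.84) and Chga (-0.38) fell, and Ins1, Pdx1 and Nkx6-1 did not pass. Ins2 averaged 635 CPM in verapamil libraries and 1318 CPM in control libraries, and Mafa 1260 CPM in verapamil libraries and 697 CPM in control libraries. Of the markers listed for other islet, exocrine, stromal and immune cells, Gcg, the glucagon gene, was present at 176 to 333 CPM in verapamil libraries, against 174 to 198 CPM in control libraries. Sox9, a ductal marker, was at 0.580 to 2.27 CPM in verapamil libraries, against 1.45 to 4.02 CPM in control libraries, and the others were not analysed here. Replicates varied more after verapamil: edgeR's biological coefficient of variation was 0.274 in verapamil and 0.102 in control libraries. The verapamil libraries also differed among themselves in a way that followed transcript composition. Across genes, the log2 difference of a library from the control mean had a correlation with transcript GC content of 0.04 to 0.65 in verapamil libraries, against -0.18 to 0.16 in control libraries. The mean correlation was 0.55 and 0.57 in the verapamil libraries of sets 2 and 3, against 0.19 and 0.16 in those of sets 1 and 4. Transcript length moved the other way, with correlations of -0.60 to -0.03 in verapamil libraries, against -0.13 to 0.12 in control libraries. Many results that rest on sets 2 and 3, or that change once these trends enter the fit, are given both ways. Not every fit is given for every member.

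Of the 59 translation factors, 28 rose, 15 fell and 16 did not pass an adjusted p of 0.05 in edgeR. Among all genes tested, 31.2% rose and 31.6% fell, so that the members that rose made up a larger share and those that fell a smaller share than in the whole table. Counts of functional groups given below are to be read against these shares. The median log2 fold change (verapamil over control) was 0.13 over the members and -0.00 over all tested genes. Changes were small: the members lay between -0.97 and 0.66 on the log2 scale. In bulk RNA, fewer transcripts per cell and a smaller share of the cells expressing a gene cannot be told apart.

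Complete separation of the groups was rare. For 6 members the lowest verapamil library exceeded the highest control library, which held for 4.95% of all tested genes: Eif1, Eif1b, Eif3c, Eif3i, Eif3k and Eef1g. For Eif4e3 alone all 12 lay below every control library, which held for 5.18% of all tested genes. The map of all members by library shows that the falls were deepest in sets 2 and 3.

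**Figure D1:**
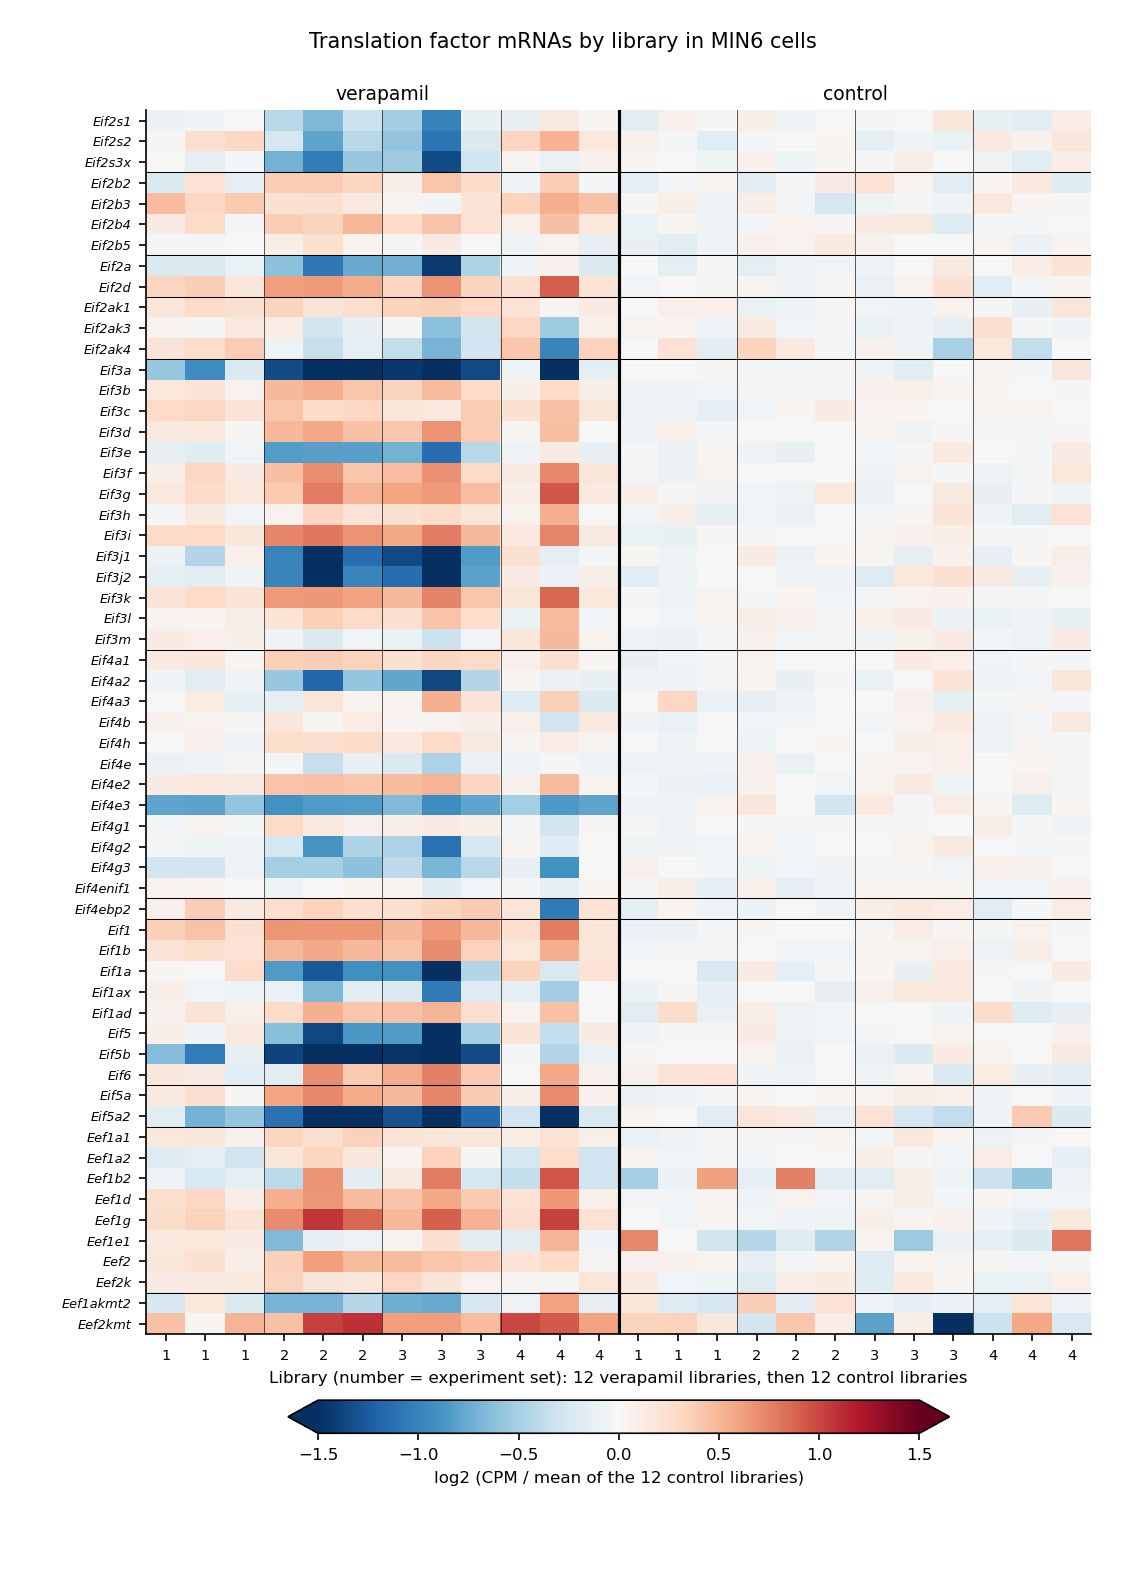
Colour map of the level of 59 translation factor mRNAs (rows, ordered by function, lines between functional groups) in 12 verapamil libraries, left, and 12 control libraries, right, each numbered by experiment set, where colour is log2 of CPM over the mean of the control libraries, cut at -1.5 and 1.5. Eif3a, Eif5b, Eif3j1 and Eif5a2 are lowest in the verapamil libraries of sets 2 and 3, with Eif3a and Eif5a2 about as low in 1 library of set 4. In set 1 these genes also fall below every control library, less deeply, Eif3a in all libraries of the set and the others in part of it. Eif4e3 is lower in all 12 verapamil libraries and Eif1 higher in all 12.

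Support from the smaller subsets differed between the members that rose and those that fell. With counts summed per set and group, 4 sums against 4, 25 members rose and 4 fell, against 24.4% and 17.3% of all tested genes. The 4 were Eif3a, Eif4e3, Eif4g3 and Eif5a2, and every other member that had fallen over all libraries lost its call with the sums. Of the members that had risen, Eif2b2, Eif4h and Eif6 lost theirs. In sets 1 and 4 alone, 13 members rose and 1 fell, against 13.4% and 12.0% of all tested genes. All 13 had also risen over all sets, and the 1 was Eif4e3. The direction was the same in each of the 4 sets for 26 members that were higher and 10 that were lower, against 29.8% and 30.7% of all tested genes. With the slopes of each library on GC content and length as covariates, 18 members rose and 5 fell, against 21.2% and 14.2% of all tested genes. Of the 28 members that had risen 11 remained, and of the 15 that had fallen 2 remained, Eif3a and Eif4e3. With the trend removed instead, 21 rose and 12 fell, against 20.9% and 34.4% of all tested genes. There were 11 members called with the same sign in all of these fits over all 4 sets: Eif2b3, Eif2d, Eif2ak1, Eif3c, Eif3i, Eif1, Eef1a1, Eef1d and Eef1g rose, and Eif3a and Eif4e3 fell. The share of all tested genes that kept their call in this way was not counted. Whether the members kept more or fewer calls than other genes is therefore not known. The trend and the treatment are linked across libraries (variance inflation of the treatment term 1.98), so that the effects of verapamil and of the trend cannot be told apart fully in these libraries.

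**Figure D2:**
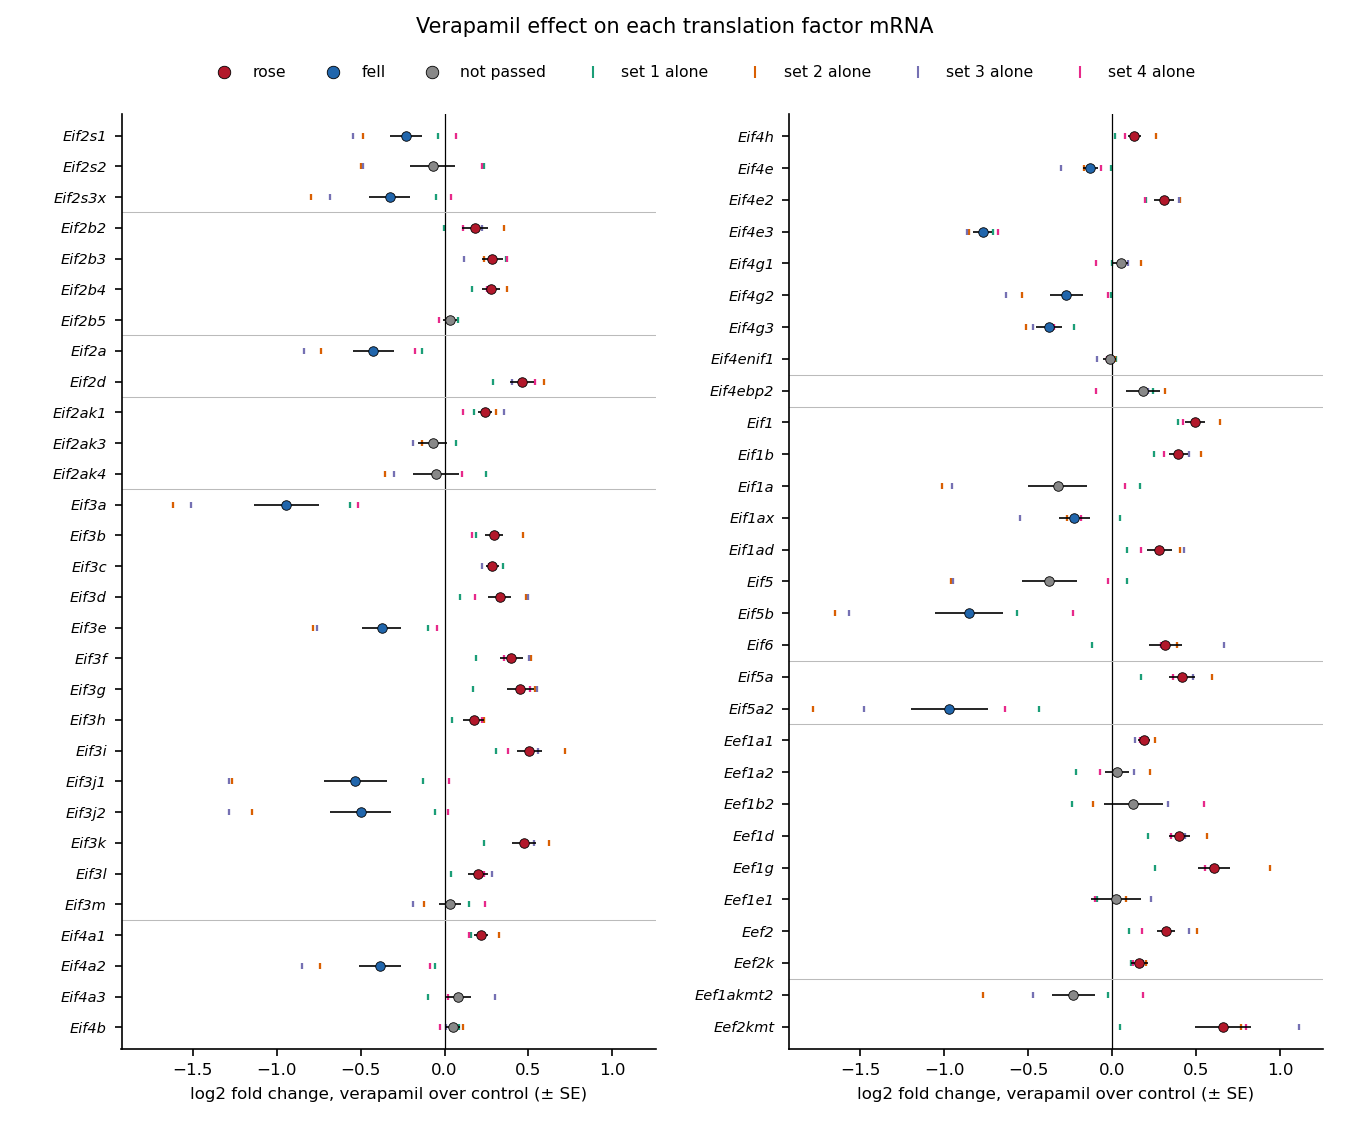
Log2 fold change of verapamil over control for each member (circles, coloured by call, with SE bars) and within each experiment set alone (coloured ticks), ordered by function from eIF2 to the methyltransferases of elongation factors. Ticks of sets 2 and 3 lie far to the left of those of sets 1 and 4 for Eif3a, Eif3j1, Eif3j2, Eif5 and Eif5b, and the 4 ticks of Eif4e3 lie close together, between -0.86 and -0.68.

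eIF2 is the trimer that carries initiator tRNA. Of its 3 measured subunits 2 fell. Eif2s1, which encodes eIF2α, the subunit that stress kinases phosphorylate, had 33.2, 62.3 and 73.5 CPM in verapamil libraries (lowest, median and highest, the order used from here on) and 60.2, 67.0 and 75.9 CPM in control libraries. The groups overlapped, with 5 of 12 verapamil libraries below every control library. Its log2 fold change was -0.23 ± 0.10 (SE, adjusted p = 0.0413), a call that was lost in 12 of 24 fits that left out a single library. For Eif2s3x, the γ subunit that binds GTP and tRNA, verapamil libraries had 32.9, 72.2 and 87.6 CPM and control libraries 74.5, 84.0 and 90.3 CPM, a log2 fold change of -0.33 ± 0.12 (SE, adjusted p = 0.024). Eif2s2, the β subunit, had 73.0, 145 and 222 CPM in verapamil libraries and 138, 154 and 175 CPM in control libraries, with 4 verapamil libraries higher and 6 lower than all control libraries. Its value was -0.07 ± 0.14 (SE, adjusted p = 0.659). The 3 subunits shared the same split between sets: the log2 fold changes of Eif2s2 were -0.50 and -0.49 in sets 2 and 3, and 0.23 and 0.22 in sets 1 and 4. With the trend as covariates the falls of Eif2s1 and Eif2s3x were lost (log2 fold changes 0.05 and 0.12; adjusted p = 0.562 and 0.0795), and Eif2s2 was higher at 0.31 (adjusted p = 0.00224).

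eIF2B recharges eIF2 with GTP. Of its 4 measured subunits 3 rose over all libraries. Eif2b3, the γ subunit of the catalytic part, had 17.5, 22.0 and 26.6 CPM in verapamil libraries and 15.2, 18.2 and 20.3 CPM in control libraries, and 9 verapamil libraries lay above every control library. Its log2 fold change was 0.28 ± 0.06 (SE, adjusted p = 0.000465), and 0.37 and 0.37 within sets 1 and 4. Eif2b4, the δ subunit of the regulatory part, had 27.6, 34.8 and 39.7 CPM in verapamil libraries and 24.9, 28.1 and 30.8 CPM in control libraries, with a log2 fold change of 0.28 ± 0.06 (SE, adjusted p = 0.000197). Again 9 libraries were above every control library. Eif2b2, the β subunit of the regulatory part, rose by 0.18 ± 0.08 (SE, adjusted p = 0.0399), and this call was lost in 13 of those 24 fits. Eif2b5, whose product holds the catalytic domain, had 38.7, 42.4 and 49.5 CPM in verapamil libraries and 37.5, 42.8 and 46.2 CPM in control libraries. These ranges nearly coincide, and its value was 0.03 ± 0.04 (SE, adjusted p = 0.529). With the covariates Eif2b3 kept its call (0.40; adjusted p = 5.50e-06) and Eif2b2 and Eif2b4 did not (adjusted p = 0.377 and 0.238). With the trend removed Eif2s1 and Eif2s2 were higher (0.34 and 0.30; adjusted p = 8.89e-05 and 0.000205), Eif2b2 and Eif2b5 were lower (-0.17 and -0.20; adjusted p = 0.01 and 0.000491), and Eif2b3 was higher (0.24; adjusted p = 0.000888).

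Eif2d and Eif2a encode alternative factors that can bring tRNA to the ribosome without eIF2. Eif2d, which also acts in recycling and reinitiation, had 28.9, 32.7 and 48.0 CPM in verapamil libraries, against 22.9, 25.7 and 30.0 CPM in control libraries. In 10 of 12 verapamil libraries its level exceeded every control library, with a log2 fold change of 0.46 ± 0.07 (SE, adjusted p = 9.81e-06). Eif2a, which encodes eIF2A and is not a subunit of eIF2, had 26.0, 55.8 and 73.7 CPM in verapamil libraries, against 63.5, 69.7 and 81.2 CPM in control libraries. It fell by 0.43 ± 0.12 (SE, adjusted p = 0.00443), with 9 libraries below every control library. The value of Eif2a was -0.74 and -0.84 in sets 2 and 3, and -0.13 and -0.17 in sets 1 and 4. Its call was lost with sums per set (adjusted p = 0.0914), in sets 1 and 4 alone (-0.15; adjusted p = 0.134) and with the covariates (-0.06; adjusted p = 0.519), whereas Eif2d kept its call in these 3 fits (0.19 with the covariates; adjusted p = 0.00765). Eif2a overlaps Serp1 and Eif2d overlaps Rassf5 on the opposite strand, and since the strand setting of the counting is not given, reads of these neighbours cannot be told apart from theirs. The same limit holds for other members, among them Eif2b4 (Snx17), Eif3m (Ccdc73), Eif3j1 (Spg11), Eif4a2 (Rfc4), Eif1ad (Banf1) and Eif5b (Rev1).

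Of the eIF2α kinases, 3 were measured. Eif2ak1 (HRI), the kinase known for sensing haem shortage and mitochondrial stress, had 37.8, 43.7 and 46.9 CPM in verapamil libraries and 34.0, 36.4 and 41.6 CPM in control libraries. It rose, with a log2 fold change of 0.24 ± 0.04 (SE, adjusted p = 4.91e-05), and 9 verapamil libraries were above every control library. The change was positive in all 4 sets, from 0.11 in set 4 to 0.35 in set 3. Eif2ak3 (PERK), the kinase of the endoplasmic reticulum whose loss causes diabetes in mice and people, had 10.0, 15.4 and 19.1 CPM in verapamil libraries and 14.2, 15.2 and 18.4 CPM in control libraries. Eif2ak4 (GCN2), the sensor of uncharged tRNA, had 4.98, 9.20 and 13.2 CPM in verapamil libraries and 7.07, 9.88 and 12.5 CPM in control libraries. Both sets of ranges overlapped, and the values were -0.07 ± 0.09 (SE, adjusted p = 0.481) and -0.05 ± 0.14 (SE, adjusted p = 0.765). With the covariates both came out higher (0.23 and 0.45; adjusted p = 0.0101 and 0.000506). With the trend removed instead neither passed (-0.11 and -0.04; adjusted p = 0.275 and 0.795). Neither passed in sets 1 and 4 alone (0.00 and 0.18; adjusted p = 0.993 and 0.504). Eif2ak1 overlaps Aimp2 and Ankrd61 on the opposite strand.

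eIF3, the largest initiation factor, bridges the small ribosomal subunit and the mRNA. Of its 14 measured genes 9 rose, 4 fell and Eif3m did not pass the test, against 31.2% and 31.6% of all tested genes that rose and fell. With the covariates 4 of the 14 rose and 1 fell, against 21.2% and 14.2% of all tested genes. Transcript GC content was 49.6% to 55.9% in the 9 that rose and 40.1% to 44.5% in the 4 that fell. The members that rose encode the core subunits b, c, g and i, the cap-binding subunit d, and f, h, k and l of the octamer. Eif3i, a β-propeller protein of the core, had 280.1, 369 and 442 CPM in verapamil libraries, against 236, 256 and 273 CPM in control libraries. The groups did not overlap, and the log2 fold change was 0.50 ± 0.07 (SE, adjusted p = 4.96e-06). Eif3k, a small octamer subunit, had 227, 277 and 370.2 CPM in verapamil libraries, against 195, 201 and 212 CPM in control libraries, again without overlap and with a value of 0.47 ± 0.07 (SE, adjusted p = 5.89e-06). Eif3c, a core subunit that contacts eIF1, also had no overlap, with 0.28 ± 0.04 (SE, adjusted p = 1.45e-06) over all libraries and 0.22 to 0.35 within the sets. Eif3g rose by 0.45 ± 0.08 (SE, adjusted p = 5.08e-05), Eif3f by 0.40 ± 0.07 (SE, adjusted p = 3.72e-05), Eif3d by 0.33 ± 0.07 (SE, adjusted p = 0.000239) and Eif3b by 0.29 ± 0.05 (SE, adjusted p = 4.06e-05). The smallest rises of the complex were those of Eif3l (0.20) and Eif3h (0.17). With the covariates Eif3c, Eif3i, Eif3k and Eif3m were higher (0.26, 0.15, 0.14 and 0.12; adjusted p = 5.25e-05, 0.00468, 0.00244 and 0.0144), and the other rises of eIF3 genes were not past the threshold. With the trend removed Eif3k did not pass (0.00; adjusted p = 0.96). Eif3c, Eif3i and Eif3m were higher in that fit too (0.25, 0.11 and 0.16; adjusted p = 1.70e-05, 0.00291 and 1.65e-05).

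Eif3a, the largest core subunit and the scaffold of the complex, went against them. Its levels were 189.5, 308 and 753 CPM in verapamil libraries and 699.7, 784 and 884 CPM in control libraries. It was lower than in any control library in 10 of 12 verapamil libraries, and its fold was 0.52, a log2 fold change of -0.94 ± 0.19 (SE, adjusted p = 0.000225). The fall was -1.62 and -1.51 in sets 2 and 3, and -0.56 and -0.51 in sets 1 and 4, where 1 library of set 4, the one with the steepest length trend, was low and the other 2 were within the control range. With the covariates it was -0.18 and still past the threshold (adjusted p = 0.0162). Eif3e, an octamer subunit, had 79.1, 143 and 191 CPM in verapamil libraries and 162, 174 and 194 CPM in control libraries, with 9 verapamil libraries below every control library. Its value of -0.37 ± 0.11 (SE, adjusted p = 0.00678) lay mainly in sets 2 and 3 (-0.79 and -0.76), with -0.10 and -0.05 in sets 1 and 4. With the covariates it was -0.05 (adjusted p = 0.354). The near-identical Eif3j1 and Eif3j2 encode the loosely bound j subunit. Eif3j1 had 19.4, 46.3 and 83.5 CPM in verapamil libraries and 65.0, 72.6 and 77.6 CPM in control libraries, a log2 fold change of -0.53 ± 0.19 (SE, adjusted p = 0.0169). Eif3j2, which has a single exon, had 14.7, 41.0 and 60.7 CPM in verapamil libraries and 48.8, 54.9 and 65.2 CPM in control libraries, a log2 fold change of -0.50 ± 0.18 (SE, adjusted p = 0.0203). In both the groups overlapped, with 8 and 6 verapamil libraries below every control library, and reads may be split between these copies. In sets 1 and 4 alone their log2 fold changes were -0.05 and -0.01, neither past the threshold.

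Per kilobase of the representative transcript, eIF3 subunits that work in 1 complex differed widely in both groups. Eif3m was at 376 CPM per kb in verapamil libraries and 368 in control libraries, and Eif3k at 364 in verapamil libraries and 262 in control libraries. Eif3a was at 79.7 CPM per kb in verapamil libraries and 153 in control libraries, and Eif3h at 54.5 in verapamil libraries and 48.4 in control libraries. The level of Eif3a per kb was below that of Eif3d in verapamil libraries (79.7 and 114 CPM per kb) and above it in control libraries (153 and 90.4 CPM per kb).

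**Figure D3:**
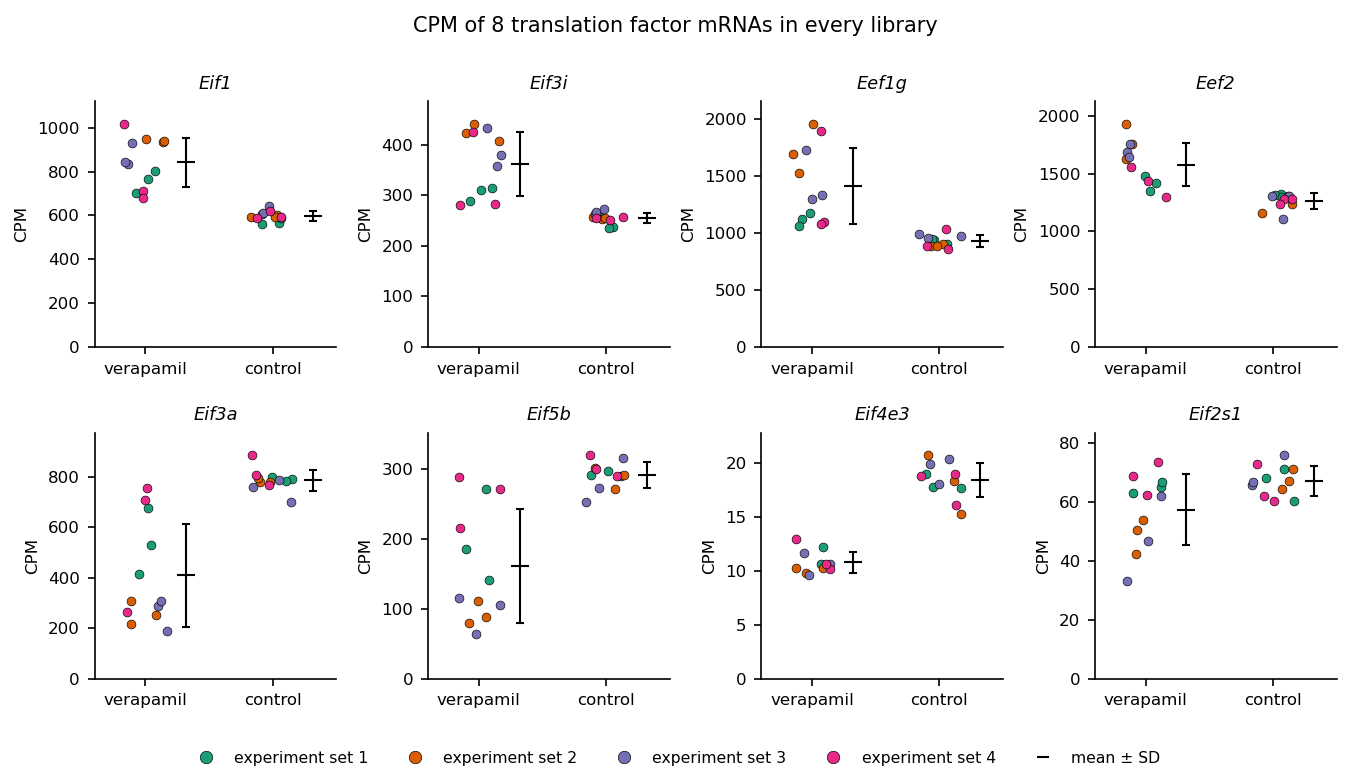
CPM of 8 members in each of 12 verapamil libraries, left, and 12 control libraries, right, coloured by experiment set, with mean and SD at the side. Eif1, Eif3i and Eef1g do not overlap between the groups, and Eif4e3 lies below every control library in all sets. Eif3a is lowest in sets 2 and 3 and in 1 library of set 4, and all libraries of set 1 are also below every control library. Eif5b is lowest in sets 2 and 3, and some libraries of sets 1 and 4 are also below every control library.

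The eIF4 group binds the cap (eIF4E), bridges to the ribosome (eIF4G) and unwinds the leader (eIF4A with eIF4B or eIF4H). Of its 12 measured genes 3 rose, 5 fell and 4 were not past the threshold, against 31.2% and 31.6% of all tested genes that rose and fell. With the covariates 0 of the 12 rose and 2 fell, against 21.2% and 14.2% of all tested genes. The clearest fall was that of Eif4e3, a relative of eIF4E that binds the cap without the tryptophan pair of eIF4E. It had 9.63, 10.6 and 12.9 CPM in verapamil libraries, against 15.3, 18.6 and 20.7 CPM in control libraries, and no libraries overlapped. Its fold was 0.586, a log2 fold change of -0.77 ± 0.06 (SE, adjusted p = 8.84e-11). The value stayed between -0.86 and -0.68 within the 4 sets, and was -0.65 with the covariates (adjusted p = 3.96e-08). The gene lies on mouse chromosome 6 (99625135 to 99666771, GRCm38, minus strand) and overlaps Gm20696 on the same strand, whose reads cannot be separated from its own.

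The other cap-binding genes changed less. Eif4e, the main cap-binding protein, had 202, 265 and 275 CPM in verapamil libraries and 263, 283 and 297 CPM in control libraries, with 5 verapamil libraries below every control library and a value of -0.13 ± 0.05 (SE, adjusted p = 0.0177). Eif4e2 (4EHP), which represses translation of bound mRNAs, had 68.0, 84.4 and 93.7 CPM in verapamil libraries and 61.2, 65.1 and 71.8 CPM in control libraries. It rose, with a value of 0.31 ± 0.06 (SE, adjusted p = 7.31e-05), and 9 libraries were above every control library. With the covariates neither was past the threshold (adjusted p = 0.908 and 0.181). With the trend removed Eif4e and Eif4e2 were both higher (0.62 and 0.11, with adjusted p of 5.11e-05 and 0.00666), so that Eif4e changed sign. Eif4ebp2, the measured inhibitor that holds eIF4E away from eIF4G, had 34.4, 85.1 and 94.2 CPM in verapamil libraries and 64.0, 71.4 and 79.2 CPM in control libraries. In 9 verapamil libraries it was above every control library and in 1 library of set 4 below all of them, and its value of 0.18 ± 0.10 (SE, adjusted p = 0.118) missed the threshold. Without that library it was 0.25 and passed (adjusted p = 6.92e-05). The same library had a correlation of its difference from control with GC content of 0.38 and with length of -0.60, the steepest length trend of all 24 libraries. Over all libraries Eif4ebp2 passed with the covariates (0.25; adjusted p = 0.0179) and did not with the trend removed (0.15; adjusted p = 0.0605). Eif4enif1 (4E-T), which carries eIF4E into the nucleus, was at -0.01 ± 0.04 (SE, adjusted p = 0.752).

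Among the scaffolds, Eif4g1 was at 1696, 2142 and 2534 CPM in verapamil libraries and 1984, 2062 and 2179 CPM in control libraries, with overlapping ranges and a value of 0.05 ± 0.04 (SE, adjusted p = 0.308). Eif4g3, its closest relative, had 48.3, 68.4 and 90.0 CPM in verapamil libraries and 87.1, 89.8 and 95.4 CPM in control libraries. It fell, with 10 libraries below every control library and a value of -0.38 ± 0.08 (SE, adjusted p = 0.000216), and it was lower in all 4 sets. Eif4g2 (DAP5), which lacks the eIF4E-binding part and serves cap-independent initiation, had 2021, 3773 and 4542 CPM in verapamil libraries and 4203, 4363 and 4854 CPM in control libraries. Its fall of -0.27 ± 0.10 (SE, adjusted p = 0.019) lay mainly in sets 2 and 3 (-0.54 and -0.63), with -0.00 and -0.02 in sets 1 and 4. With the covariates Eif4g3 was at -0.07 and Eif4g2 at 0.11 (adjusted p = 0.22 and 0.133). With the trend removed Eif4g3 was lower at -0.35 and Eif4g2 higher at 0.36 (adjusted p = 6.27e-05 and 0.000285).

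Over all libraries the helicase paralogs Eif4a1 and Eif4a2 moved in opposite directions. Eif4a1 had 508, 586 and 648 CPM in verapamil libraries and 462, 495 and 544 CPM in control libraries, and rose by 0.22 ± 0.04 (SE, adjusted p = 0.000163). Eif4a2 had 704, 1491 and 1850 CPM in verapamil libraries and 1686, 1782 and 2098 CPM in control libraries, and fell by 0.38 ± 0.12 (SE, adjusted p = 0.00952). For Eif4a1 9 verapamil libraries were above every control library, and for Eif4a2 7 were below. With the covariates neither passed (0.07 and 0.05; adjusted p = 0.152 and 0.472). In sets 1 and 4 alone Eif4a1 rose and Eif4a2 did not pass (0.15 and -0.07; adjusted p = 0.0298 and 0.336). The coding sequences translate to 406 and 407 residues, identical at 366 of 406 aligned positions (90.2%), while the bases of the aligned codons are the same at 77.4%. The stretch around the DEAD box, the ATP-binding motif that names this helicase family, is shown because it lets the copies be told apart at the base level while coding nearly the same residues. Capitals mark the DEAD box codons, bases run 5′ to 3′ on the coding strand, and the intron between exons 5 and 6 is left out.
Eif4a1: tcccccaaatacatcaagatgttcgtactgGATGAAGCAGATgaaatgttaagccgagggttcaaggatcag
Eif4a2: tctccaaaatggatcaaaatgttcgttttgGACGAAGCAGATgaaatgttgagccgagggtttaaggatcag
The Eif4a1 stretch lies at chr11:69668683-69669078 (minus strand, GRCm38) and that of Eif4a2 at chr16:23110153-23110304 (plus strand). They differ at 10 of 72 bases and 1 of 24 residues. Over the whole coding sequence, the wobble position of codons is G or C at 57.5% in Eif4a1 and 44.1% in Eif4a2. Eif4b, which stimulates the helicase, had 692, 879 and 952 CPM in verapamil libraries and 786, 832 and 934 CPM in control libraries, with overlapping ranges and a value of 0.05 ± 0.04 (SE, adjusted p = 0.316). Eif4h, its relative, rose by 0.13 ± 0.04 (SE, adjusted p = 0.00719), and Eif4a3, the exon junction helicase, was at 0.08 ± 0.07 (SE, adjusted p = 0.337). With the covariates Eif4h lost its call (-0.01; adjusted p = 0.879) and Eif4a3 was lower (-0.19; adjusted p = 0.0324), as both were with the trend removed (-0.13 and -0.27; adjusted p = 0.00322 and 0.000224).

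Of the 8 measured factors of start codon selection and subunit joining, 4 rose, 2 fell and 2 were not past the threshold. Among all tested genes 31.2% rose and 31.6% fell. With the covariates 4 of the 8 rose and 0 fell, against 21.2% and 14.2% of all tested genes. Eif1, the gatekeeper that keeps the scanning complex open until a good start codon is met, had 681, 840.5 and 1019 CPM in verapamil libraries, against 563, 595 and 645 CPM in control libraries. The groups did not overlap, and the log2 fold change was 0.50 ± 0.06 (SE, adjusted p = 1.84e-07). Its paralog Eif1b had 132, 155 and 193 CPM in verapamil libraries, against 112, 117 and 125 CPM in control libraries, again without overlap and with a value of 0.39 ± 0.06 (SE, adjusted p = 2.75e-06). Both kept their calls with the covariates (0.25 and 0.15; adjusted p = 1.83e-05 and 0.000519) and in sets 1 and 4 alone (0.41 and 0.28; adjusted p = 0.00479 and 0.0095). With the trend removed Eif1 kept its call (0.20; adjusted p = 5.95e-06) and Eif1b did not (-0.02; adjusted p = 0.739). Eif6, which keeps the ribosomal subunits apart, had 13.5, 18.3 and 25.4 CPM in verapamil libraries and 12.9, 14.8 and 17.4 CPM in control libraries. It rose by 0.32 ± 0.10 (SE, adjusted p = 0.00753), with 6 libraries above every control library, but was at -0.12 in set 1 and at -0.07 with the covariates (adjusted p = 0.537). Eif1ad, which holds an eIF1A-like domain, rose by 0.28 ± 0.07 (SE, adjusted p = 0.00181), a call lost with the covariates (0.02; adjusted p = 0.838).

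Eif5b, the GTPase of subunit joining, had 63.2, 127 and 288 CPM in verapamil libraries and 252, 291 and 319 CPM in control libraries, and 9 verapamil libraries were below every control library. Its fold was 0.554, a log2 fold change of -0.85 ± 0.20 (SE, adjusted p = 0.000989), with -1.65 and -1.56 in sets 2 and 3, and -0.57 and -0.23 in sets 1 and 4. With the covariates it was -0.20 and with sums per set -0.81, and neither passed in edgeR (adjusted p = 0.0705 and 0.0708). Eif5, the GTPase activator of eIF2, had 205, 514 and 789 CPM in verapamil libraries and 658, 686 and 757 CPM in control libraries. The verapamil range enclosed the whole control range, and the value of -0.37 ± 0.16 (SE, adjusted p = 0.0507) missed the threshold. Without any 1 of 5 verapamil libraries of sets 1 and 4 it passed (adjusted p = 0.0221 to 0.0394). Within sets 2 and 3 it was -0.96 and -0.95, and within sets 1 and 4 0.09 and -0.02, and with the covariates the sign changed (0.28; adjusted p = 2.69e-05). Eif1ax, the X-linked copy of eIF1A, fell by 0.23 ± 0.09 (SE, adjusted p = 0.0373), a call lost in 5 of 24 fits without a single library, and Eif1a was at -0.32 ± 0.18 (SE, adjusted p = 0.114), or -0.40 without verapamil replicate 10 (adjusted p = 0.047). With the covariates Eif1a was higher (0.34; adjusted p = 2.03e-06) and Eif1ax did not pass (0.11; adjusted p = 0.346), and with the trend removed both were higher (0.16 and 0.53; adjusted p = 0.037 and 8.96e-05).

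eIF5A carries hypusine, a modified lysine found in no other cellular protein, and helps the ribosome past difficult stretches of peptide. Of its 2 genes 1 rose and 1 fell over all libraries. Eif5a had 1515, 2025 and 2478 CPM in verapamil libraries, against 1406, 1483 and 1590 CPM in control libraries, and rose by 0.42 ± 0.08 (SE, adjusted p = 7.85e-05), with 9 libraries above every control library. Eif5a2 had 1.75, 6.06 and 11.9 CPM in verapamil libraries, against 10.4, 13.1 and 17.5 CPM in control libraries. It fell by 0.97 ± 0.23 (SE, adjusted p = 0.000926), with 9 libraries below every control library. With the covariates neither passed (0.04 and -0.10; adjusted p = 0.478 and 0.611). The coding stretch around the hypusine lysine is shown for both, since it codes the same residues in both genes from different bases. Capitals mark the codon of that lysine at residue 50, and the intron is left out.
Eif5a: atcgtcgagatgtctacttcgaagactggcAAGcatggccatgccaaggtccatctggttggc
Eif5a2: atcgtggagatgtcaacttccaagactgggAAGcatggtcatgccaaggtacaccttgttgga
The Eif5a stretch lies at chr11:69918007-69919198 (minus strand, GRCm38, exons 3 and 4) and that of Eif5a2 at chr3:28782169-28782742 (plus strand, exons 2 and 3). They differ at 9 of 63 bases and 0 of 21 residues. The whole proteins of 154 and 153 residues are 83.0% identical, and the wobble position is G or C at 56.1% in Eif5a and 44.2% in Eif5a2. The 3′ untranslated part of the representative transcript is 633 bases in Eif5a and 4391 bases in Eif5a2.

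Of the 8 measured elongation genes 5 rose and 3 did not pass the test in edgeR, against 31.2% of all tested genes that rose. All 8 log2 fold changes were positive over all libraries. Those of Eef1a2, Eef1b2 and Eef1e1 were smaller than their SE, and in set 1 they were negative (-0.21, -0.24 and -0.09). With the covariates 3 of the 8 rose and 2 fell, against 21.2% and 14.2% of all tested genes. Eef1g, the γ subunit of the exchange factor that recharges eEF1A, had 1062, 1318 and 1960 CPM in verapamil libraries, against 857, 921 and 1037 CPM in control libraries, without overlap. Its fold was 1.52, a log2 fold change of 0.60 ± 0.09 (SE, adjusted p = 1.00e-05), and within sets it ran from 0.26 in set 1 to 0.94 in set 2. Eef1d, the δ subunit, had 97.9, 124 and 147 CPM in verapamil libraries, against 88.9, 91.6 and 99.1 CPM in control libraries, with 11 libraries above every control library and a value of 0.40 ± 0.06 (SE, adjusted p = 6.82e-06). Eef1d overlaps Naprt on the same strand, and reads of that overlap cannot be told apart from its own. Eef1b2, which completes the exchange factor, had 19.9, 23.7 and 50.8 CPM in verapamil libraries and 17.6, 24.4 and 44.6 CPM in control libraries. It was scattered in both groups, overlaps Ndufs1 on the opposite strand, and its value was 0.13 ± 0.18 (SE, adjusted p = 0.538).

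Eef1a1, which delivers aminoacyl-tRNA to the ribosome and was the most abundant member per kb, had 2892, 3132 and 3496 CPM in verapamil libraries and 2575, 2750 and 3066 CPM in control libraries. It rose by 0.19 ± 0.04 (SE, adjusted p = 9.36e-05), with 9 libraries above every control library. Eef1a2, the copy typical of neurons and muscle, had 914, 1153 and 1429 CPM in verapamil libraries and 1032, 1120 and 1212 CPM in control libraries. Its verapamil range reached past both ends of the control range, and the value was 0.03 ± 0.07 (SE, adjusted p = 0.713). With the covariates Eef1a2 was lower (-0.31; adjusted p = 4.21e-08), the only elongation gene beside Eef1b2 called lower in that fit (-0.46; adjusted p = 0.0426). Eef2, the translocase, had 1301, 1587 and 1931 CPM in verapamil libraries, against 1107, 1286 and 1321 CPM in control libraries, with 11 libraries above every control library and a value of 0.32 ± 0.06 (SE, adjusted p = 3.13e-05). Eef2k, the calcium- and calmodulin-dependent kinase that inhibits eEF2, had 36.6, 40.5 and 46.1 CPM in verapamil libraries and 31.9, 36.2 and 40.3 CPM in control libraries, and rose by 0.16 ± 0.05 (SE, adjusted p = 0.00759). With the covariates Eef2 and Eef2k were no longer past the threshold (adjusted p = 0.0525 and 0.0918). Eef1e1, a part of the multi-tRNA synthetase complex, was at 0.02 ± 0.15 (SE, adjusted p = 0.902).

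Of the measured methyltransferases of elongation factors, Eef2kmt, which modifies eEF2, had 1.44, 2.19 and 3.06 CPM in verapamil libraries and 0.482, 1.53 and 2.13 CPM in control libraries. Its raw counts were 40 to 92 per verapamil library and 6 to 63 per control library, so that counting error weighs on it. It rose by 0.66 ± 0.17 (SE, adjusted p = 0.00161), with 7 libraries above every control library, and it overlaps Alg1 on the opposite strand. The call of Eef2kmt was lost with the covariates (0.49; adjusted p = 0.0867), with the trend removed (0.38; adjusted p = 0.0508) and in sets 1 and 4 alone (0.43; adjusted p = 0.129), and its value was 0.05 in set 1. Eef1akmt2, which modifies eEF1A, was at -0.23 ± 0.13 (SE, adjusted p = 0.12). It passed without 1 unnumbered verapamil library, the library of set 4 with the steepest length trend (-0.34, adjusted p = 0.00742).

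Per kilobase the members spanned 3 orders of magnitude. After Eef1a1 (1754 CPM per kb in verapamil libraries and 1537 in control libraries) came Eif5a (1387 in verapamil libraries and 1038 in control libraries). In verapamil libraries Eef1g (759) followed, with Eif1 (638) and Eif4a2 (631) close to each other behind it, whereas in control libraries Eif4a2 (824) stood above Eif4g2 (551), Eef1a2 (539.5) and Eef1g (499). The lowest in verapamil libraries were Eef2kmt (1.05 CPM per kb in verapamil libraries and 0.658 in control libraries), Eif5a2 (1.36 in verapamil libraries and 2.66 in control libraries) and Eef1e1 (1.46 in verapamil libraries and 1.44 in control libraries), while in control libraries Eif2ak4 (1.90 CPM per kb, against 1.83 in verapamil libraries) was below Eif5a2. These levels rest on 1 representative transcript per gene.

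Ratios of paralogs within a library do not depend on scaling between libraries. They are not free of the GC and length trend, since the transcripts of a pair can differ in composition. GC content was 48.1% in Eif4a1 and 43.2% in Eif4a2, 40.5% in Eif4e and 50.0% in Eif4e2, and 55.0% in Eif5a and 38.8% in Eif5a2. How far the trend enters the ratios was not tested. The Eif4a1/Eif4a2 ratio was 0.284, 0.398 and 0.88 in verapamil libraries and 0.239, 0.277 and 0.298 in control libraries, and 10 verapamil libraries were above every control library. The Eif4e/Eif4e2 ratio was 2.16, 3.17 and 3.97 in verapamil libraries and 3.97, 4.31 and 4.72 in control libraries, with 11 below every control library. For Eif4g1/Eif4g3 the ratio was 23.1, 32.0 and 39.9 in verapamil libraries and 21.4, 22.8 and 23.9 in control libraries, with 10 above. These 3 ratios thus barely overlapped between the groups, and their ranges after verapamil were wider. The Eif5a/Eif5a2 ratio was 137, 348 and 1397 in verapamil libraries and 84.7, 109.8 and 152 in control libraries, with 9 above. Its highest values, 1397 and 1311, rest on low levels of Eif5a2 (1.75 and 1.89 CPM). Eef1a1/Eef1a2 was 2.19, 2.75 and 3.17 in verapamil libraries and 2.16, 2.47 and 2.69 in control libraries, also with 9 above, and Eif1/Eif1b was 4.80, 5.51 and 5.92 in verapamil libraries and 4.87, 5.06 and 5.29 in control libraries, with 8 above and 1 below. Eif3j1/Eif3j2 was 1.06, 1.25 and 1.42 in verapamil libraries and 1.04, 1.30 and 1.51 in control libraries, so that the copies of the j subunit kept within the control range in all 12. The Eif4a1/Eif4a2 ratio averaged 0.614 and 0.629 in the verapamil libraries of sets 2 and 3, against 0.283 and 0.281 in their controls. In sets 1 and 4 it averaged 0.317 and 0.31 in verapamil libraries, against 0.273 and 0.265 in control libraries.

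**Figure D4:**
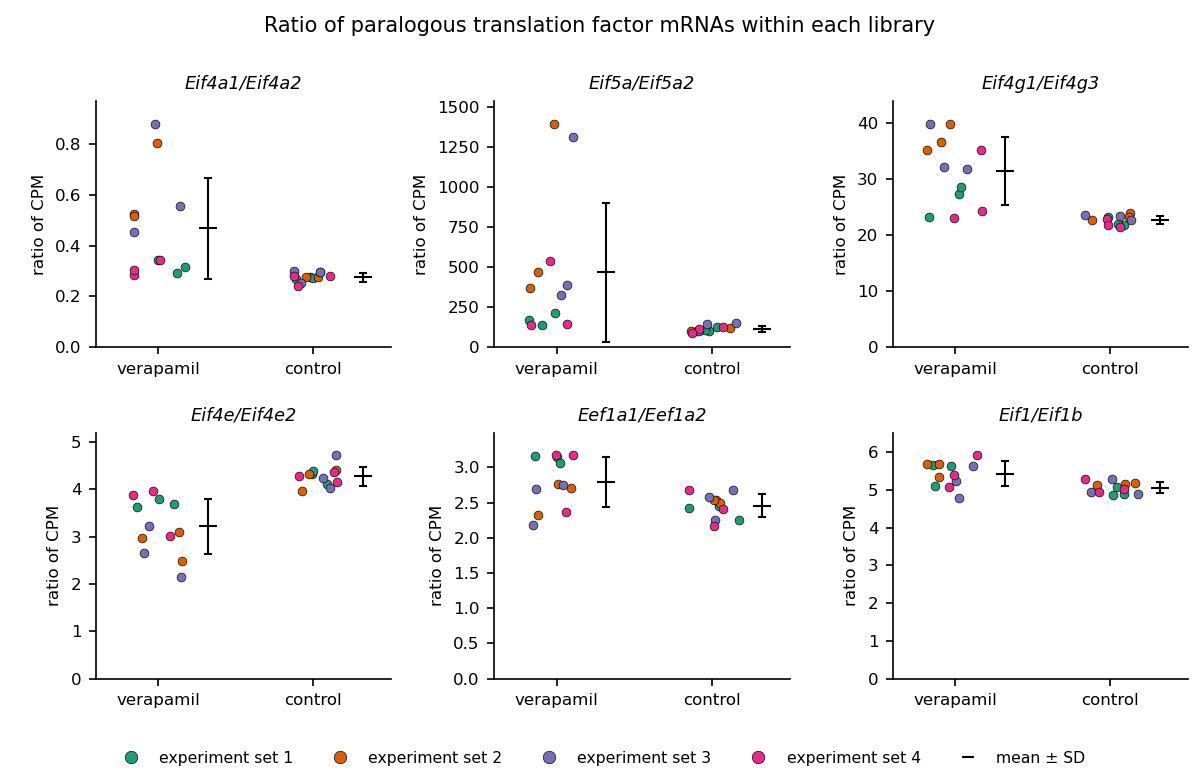
Ratio of the CPM of 6 pairs of paralogs within each library, 12 verapamil libraries left and 12 control libraries right, coloured by experiment set, with mean and SD at the side. The Eif4a1/Eif4a2 and Eif5a/Eif5a2 ratios spread upward in sets 2 and 3, and 11 of 12 verapamil libraries have a lower Eif4e/Eif4e2 ratio than any control library.

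The direction of change among members followed the composition of their transcripts. The 28 that rose had a GC content of 47.3% to 57.9% (median 52.7%), and the 15 that fell 38.8% to 51.5% (median 43.2%). The median length of the representative transcript was 1882 bases in those that rose and 4991 bases in those that fell. Over the 59 members the log2 fold change had a correlation of 0.72 with GC content and -0.53 with log2 length, and over all tested genes 0.50 and -0.38. These genes share their libraries, and the values are descriptions. Below 47.3%, the lowest GC content of a member that rose, 14 of 21 members fell, 7 did not pass and by construction none rose, while 59.1% of all tested genes in that range fell and 9.5% rose. At or above it 28 of 38 members rose, 9 did not pass and 1, Eif4g3, fell, while 42.0% of all tested genes in that range rose and 17.9% fell. Since the boundary was taken from the members' own values, no test was made of these counts.

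**Figure D5:**
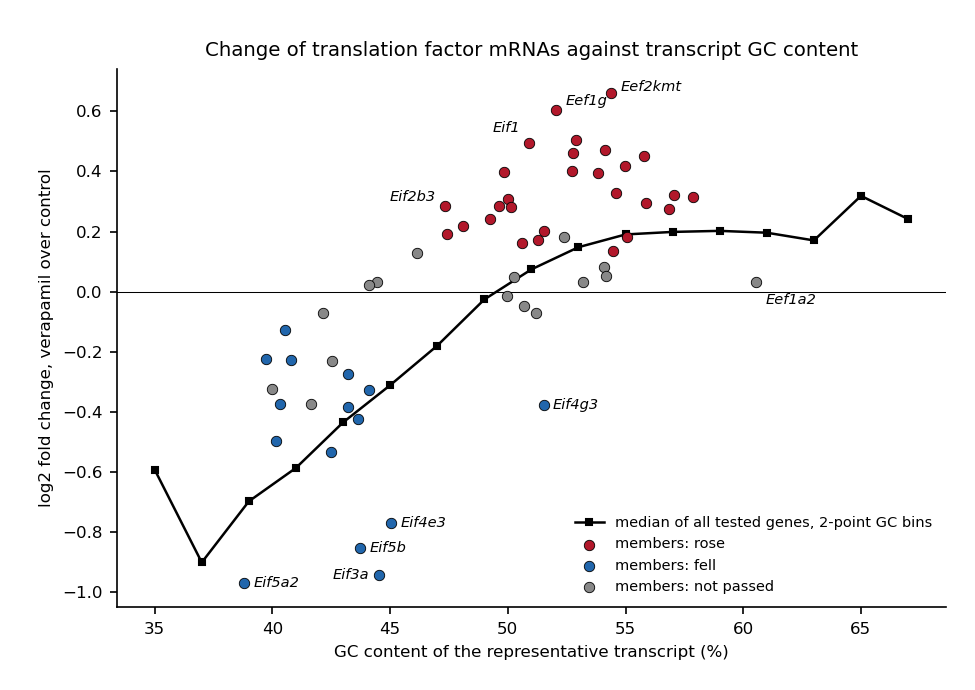
Log2 fold change of verapamil over control against the GC content of the representative transcript for 59 members (circles, coloured by call) and the median of all tested genes in bins of 2 percentage points (black squares). Members rise with GC content as all genes do; Eif3a, Eif5b, Eif4e3 and Eif4g3 lie below the line of all genes, and Eif1 and Eef1g above it.

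Coding sequences showed the same order. G or C stood at a median of 62.2% of wobble positions, the last base of a codon, in the members that rose (49.1% to 76.3%) and 43.1% in those that fell (36.3% to 59.6%). The median length of the 3′ untranslated part was 442 bases in the members that rose and 2094 bases in those that fell. Eif4e3, with G or C at 59.6% of wobble positions, had the highest value among the members that fell.

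Promoter sequences (RefSeq, GRCm38.p6; 250 bases before to 50 after each start) were found for 48 of the 59 members, and 3 motifs were counted on both strands. CACGTG, the E-box bound by MYC and USF proteins, was present in 12 of 48 members (25.0%), in 7.15% of all promoters and in 12.1% of tested genes with a promoter. It was found in 8 of 22 members that rose, 3 of 11 that fell and 1 of 15 that did not pass, with Eif4e, Eif4a1, Eif4g1, Eif5a, Eef2 and Eef2k among them. CCGGAAG, an ETS-like motif, was present in 17 of 48 members (35.4%), in 8.86% of all promoters and in 20.7% of tested genes. It was found in 11 of 22 members that rose, 2 of 11 that fell and 4 of 15 that did not pass. TGATGNAA, part of the element bound by ATF4 with C/EBP proteins, was present in 2 of 48 members, Eef2k and Eif2s3x (4.17%), in 3.97% of all promoters and in 2.51% of tested genes. No matches of different motifs overlapped in these promoters. A match is a string of letters and not a shown site.

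Neighbouring steps of the pathway were read from lists of other genes, whose counts are to be read against the 31.2% of all tested genes that rose and the 31.6% that fell, or 21.2% and 14.2% with the covariates. Of 11 tested eIF2 phosphatase subunits and mRNAs under the control of upstream reading frames, 5 rose, 2 fell and 4 did not pass, with a median log2 fold change of 0.11. Atf4, Atf5 and Ddit3, transcription factor mRNAs whose translation rises when eIF2α is phosphorylated, had the largest increases. Atf4 averaged 653 ± 121 CPM in verapamil libraries and 269 ± 11.4 CPM in control libraries (SD, n = 12 each). Atf5 averaged 454 ± 89.9 CPM in verapamil libraries and 181 ± 13.2 CPM in control libraries, and Ddit3 28.5 ± 4.90 CPM in verapamil libraries and 14.4 ± 1.59 CPM in control libraries. For all 3 every verapamil library was above every control library, with values of 1.28 ± 0.08 (adjusted p = 1.90e-12), 1.33 ± 0.09 (adjusted p = 5.76e-12) and 0.99 ± 0.08 (adjusted p = 7.34e-10). Ppp1cb, a catalytic subunit of protein phosphatase 1, fell by 0.67 ± 0.17 (adjusted p = 0.00202). With the covariates Atf4, Atf5 and Ddit3 kept their calls (0.94, 0.95 and 0.71) and Ppp1cb did not (0.01). Over the list 5 rose and 0 fell in that fit.

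Of 21 tested genes of mTORC1 and its regulators, 8 rose, 4 fell and 9 did not pass (median 0.14). Rps6, a ribosomal protein and S6 kinase substrate, rose by 0.56 ± 0.08 (adjusted p = 6.49e-06), with no overlap between the groups. Rragb, a GTPase of amino acid sensing, fell by 0.94 ± 0.15 (adjusted p = 1.44e-05). Rps6kb1, the S6 kinase, fell by 0.82 ± 0.21 (adjusted p = 0.00221). Sesn3, a stress-induced inhibitor of mTORC1, fell by 0.61 ± 0.13 (adjusted p = 0.000371), and Rragb and Sesn3 lay below every control library in all 12 verapamil libraries. With the covariates Rps6 (0.40) and Rragb (-0.38) kept their calls, and Rps6kb1 (-0.02) and Sesn3 (-0.06) did not. Over the list 6 rose and 1 fell in that fit. Among 18 regulators of cap binding and poly(A)-binding proteins, 5 rose and 9 fell (median -0.08). The helicases Ddx3x and Dhx29, which help the ribosome through structured leaders, had values of -0.74 ± 0.22 (adjusted p = 0.0057) and -0.73 ± 0.16 (adjusted p = 0.000429). Larp4, a poly(A)-associated protein, was at -0.64 ± 0.21 (adjusted p = 0.00951) and Pdcd4, an inhibitor of eIF4A, at -0.57 ± 0.17 (adjusted p = 0.00662). With the covariates Ddx3x, Dhx29 and Pdcd4 lost their calls (0.08, -0.17 and 0.06), and Larp4 turned to 0.18 (adjusted p = 0.00153). The counts of the cap-binding list turned round with them: 10 rose and 0 fell, with a median of 0.13. Of 18 tested genes of reinitiation, recycling and termination, 6 rose and 4 fell (median 0.07), led by Dph1 at 0.49 ± 0.16 (adjusted p = 0.00927) and Dph6 at -0.49 ± 0.14 (adjusted p = 0.00426), both of the diphthamide pathway that modifies eEF2, Pelo, a rescue factor for stalled ribosomes, at 0.45 ± 0.06 (adjusted p = 9.87e-07) and Etf1, the release factor, at -0.50 ± 0.15 (adjusted p = 0.00615). Of these Pelo kept its call with the covariates (0.24; adjusted p = 0.000978), a fit in which 6 genes of the list rose and 1 fell.

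Of 10 tested mitochondrial counterparts 2 rose, 4 fell and 4 did not pass, with a median log2 fold change of -0.29, against 31.2% and 31.6% of all tested genes. With the covariates 0 rose and 3 fell. Mtif2, the mitochondrial initiation factor that binds initiator tRNA, averaged 7.32 ± 4.98 CPM in verapamil libraries and 17.4 ± 4.02 CPM in control libraries (SD, n = 12 each), or -1.24 ± 0.30 (adjusted p = 0.00108) on the log2 scale. Guf1, a GTPase of mitochondrial translation, averaged 6.45 ± 2.62 CPM in verapamil libraries and 14.3 ± 1.38 CPM in control libraries, with all 12 verapamil libraries below every control library, a log2 fold change of -1.14 ± 0.18 (adjusted p = 9.30e-06). Both kept their calls with the covariates (-0.51 and -0.61; adjusted p = 0.0163 and 5.02e-06). Of 9 tested mRNAs outside the members that begin with a terminal pyrimidine tract, 5 rose and 3 fell (median 0.52). Rpsa, a protein of the small ribosomal subunit, rose by 0.55 ± 0.09 (adjusted p = 2.24e-05), and Nap1l1, a histone chaperone, fell by 0.63 ± 0.16 (adjusted p = 0.00156). With the covariates neither kept its call (0.12 and -0.04). Rplp0 rose by 1.22 ± 0.49 (adjusted p = 0.0342) with a wide spread in verapamil libraries (2.39 to 42.6 CPM, against 1.55 to 12.3 CPM in control libraries), and was at 0.22 with the covariates (adjusted p = 0.818). In that fit 4 of the 9 rose and 0 fell.

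Whether the effect differed between experiment sets was tested as an interaction over all genes. It passed for 10 of the 59 members, against 9.72% of all tested genes. In a permutation test on the summed counts, exact and two-sided, 28 of the 59 members reached 0.0286, the smallest p that 4 sums against 4 allow, as did 47.3% of all genes with sums.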

How the data were processed

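RNA-seq was made from MIN6 cells, 12 verapamil and 12 control libraries. The authors trimmed reads (Trimmomatic 0.39, after bcl2fastq 2.20), aligned them with HISAT2 2.1.0 and counted them with HTSeq 0.9.1, per the study's methods and the submitters' processing notes; the notes name GRCm38 (mm10), and the annotation release and strand setting were not given in the sources used here. The deposited values are whole-number counts per gene, 1 table for the series, holding 12310 genes and no row without a gene. Columns of the authors' own comparison (fold change and p-values) were not used. The sources differ on the RNA input and on the library kit, a stranded one in the design text only.

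Counts were tested with edgeR 4.0.16 (R 4.3.3): TMM scaling, filterByExpr (minimum count 10, minimum total 15), a quasi-likelihood fit over 12306 genes, verapamil against control without a covariate, Benjamini-Hochberg adjustment over all of them and a threshold of 0.05. SE is the absolute log2 fold change over the square root of F. CPM used the TMM library sizes. An interaction of experiment set and treatment was fitted with the same tool, and sums per set (4 against 4) were compared by an exact permutation test. The pipeline was tested on simulated data. Alternatives were DESeq2 1.42.0, other scaling factors, other filters, blocks by set and by replicate number, sums per set, single sets and libraries left out, and the slope of each library on GC content and length, either as covariates or subtracted from the counts through offsets. Transcript length, GC content, coding sequences and coordinates came from GENCODE M21 on GRCm38, 1 representative transcript per gene, and 12308 genes of the table matched it. Promoters came from RefSeq (GRCm38.p6). Tables and plots used Python 3.11.15, numpy 2.4.6, pandas 2.3.3, scipy 1.17.1 and matplotlib 3.10.9.

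The experiment set was read from the first digit of each sample's description. 4 columns (2 per group) fit more than 1 sample name and served as unnumbered replicates, in set 4 by elimination. Values per library are given for 27 listed members and for up to 4 called members with the largest changes in each functional group (mean of at least 1 CPM), and up to 4 such genes per pathway list. The members and lists were chosen with earlier results of these data known. Genes of these lists that are not in the table, Eif4ebp1 and Eif2ak2 among them, were not analysed here. Depth was 12590476 to 44806556 counts per library. No library pair of a group differed by less than sampling noise (lowest chi-square per degree of freedom 7.35 among verapamil libraries and 5.73 among control libraries).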

Additional observations from a re-analysis of the deposited data

Results flagged for a closer look

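The effect of verapamil differed between experiment sets for 7 of the 27 listed members and 10 of all 59, against 9.72% of all tested genes, by the interaction of set and treatment in edgeR with Benjamini-Hochberg adjustment over all genes tested. Eif5b had an adjusted p of 0.00667, with log2 fold changes of -0.57, -1.65, -1.56 and -0.23 in sets 1 to 4. Eif3e had 0.00772, with -0.10, -0.79, -0.76 and -0.05, and Eif5 had 0.0290, with 0.09, -0.96, -0.95 and -0.02. These 3 share the pattern of a deep fall in sets 2 and 3. For Eif2s2 the adjusted p was 0.0306, with 0.23, -0.50, -0.49 and 0.22, for Eif2s3x 0.0391, with -0.05, -0.79, -0.68 and 0.04, and for Eif4a2 0.0399, with -0.06, -0.74, -0.85 and -0.08. Eef2 went the other way, with an adjusted p of 0.0345 and values of 0.10, 0.51, 0.46 and 0.18, all of them above 0. The verapamil libraries of sets 2 and 3 were those with the steeper GC trend, and the sets cannot be told apart from it.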

How the results depend on the processing

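Counts of members that rose and fell were 28 and 15. Over 44 alternatives they stayed within a factor of 1.5 except as follows. With the trend as covariates 18 rose and 5 fell, with counts summed per set 4 fell, and without set 2 or set 3 6 fell in each case. Set 1 alone gave 15 and 4, set 4 alone 0 and 0 by edgeR (6 higher and 1 lower at an unadjusted p under 0.05, against 945 and 827 of 12305 genes, of which 50 passed after adjustment; its libraries include the 1 with the steepest length trend), and sets 1 and 4 together 13 and 1. Leaving out each library gave 27 to 29 and 13 to 17. RLE factors gave 28 and 16, upper quartile factors 31 and 12, DESeq2 28 and 16.

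The log2 fold changes listed next changed sign against the value over all libraries and passed the threshold in at least 1 of both fits. A further 66 sign changes, in which neither value passed, are not listed. In set 1 alone: Eif2b2 -0.0028, Eif1ax 0.0454, Eif6 -0.12 and Eef1a2 -0.21. In set 4 alone: Eif2s1 0.0693, Eif2s3x 0.0398, Eif3j1 0.0281 and Eif3j2 0.0189. In sets 1 and 4 together: Eif2s1 0.0175. With the trend removed: Eif2s1 0.34, Eif2s2 0.30, Eif2s3x 0.0014, Eif2b2 -0.17, Eif2b4 -0.0435, Eif2b5 -0.20, Eif3e 0.0257, Eif3h -0.14, Eif3l -0.0498, Eif4a3 -0.27, Eif4h -0.13, Eif4e 0.62, Eif4g2 0.36, Eif1b -0.0166, Eif1a 0.16, Eif1ax 0.53, Eif6 -0.0834 and Eef1a2 -0.31. With the trend as covariates: Eif2s1 0.0477, Eif2s2 0.31, Eif2s3x 0.12, Eif2b2 -0.0907, Eif2ak3 0.23, Eif2ak4 0.45, Eif3h -0.0221, Eif3j1 0.10, Eif3j2 0.11, Eif3l -0.0494, Eif4a2 0.0527, Eif4a3 -0.19, Eif4h -0.008, Eif4g2 0.11, Eif1a 0.34, Eif1ax 0.11, Eif5 0.28, Eif6 -0.0748, Eef1a2 -0.31 and Eef1b2 -0.46. The cause was not tested.

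Leaving out 1 library changed 39 of 1416 calls, those of Eif2b2, Eif2s1, Eif1ax, Eif5, Eif4ebp2, Eif4b, Eif1a and Eef1akmt2. The adjusted p reached 0.0802 for Eif2b2 (without verapamil replicate 8), 0.0746 for Eif2s1 (without verapamil replicate 5) and 0.0624 for Eif1ax (without verapamil replicate 5). For Eif4b it fell to 0.0489 without the unnumbered verapamil library of set 4 that had the steepest length trend. The fit with the replicate number as a block gave 27 and 17, and the same libraries without the block 29 and 15. The numbers did not pair the libraries (correlations of -0.06 to 0.13, 1 of 10 best with its own number). The fits on sets 1 and 4 and on numbered libraries were chosen after seeing the data.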

Other observations

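The 7 rows with pseudogene symbols, which were left out of the members, all passed the threshold in edgeR (log2 fold change, verapamil over control). Eif4a-ps4, the most abundant, averaged 284 ± 32.9 CPM in verapamil libraries and 236 ± 10.9 CPM in control libraries (SD, n = 12 each), or 0.27 on the log2 scale. Eif5al3-ps was at 0.42, Eif1-ps1 at 0.40 and Eif1-ps2 at 0.81. The 3 rows of Eif3s6, an older name of Eif3e, were at -0.26 (Eif3s6-ps2), -0.58 (Eif3s6-ps3) and -0.71 (Eif3s6-ps4). With the GC and length trend as covariates 4 of these 7 rows, Eif4a-ps4, Eif5al3-ps, Eif3s6-ps2 and Eif3s6-ps4, were no longer past the threshold. Processed copies of this kind can be nearly identical to the parent mRNA, so that reads may be split between these rows and the Eif4a, Eif5a, Eif1 or Eif3e genes, and the levels of both are uncertain to that extent.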
